A study of Mus musculus with 12 samples.

Results

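The genes of the fibrillar collagen chains were followed in RNA-seq of primary fibroblasts isolated from the hearts of adult C57BL/6J mice of both sexes. The 10 genes were taken by name, and they are Col1a1, Col1a2, Col2a1 and Col3a1 for the major chains and Col5a1, Col5a2, Col5a3, Col11a1, Col24a1 and Col27a1 for the minor chains. All 10 were among the 18028 genes tested, of 35523 genes with a transcript in the index. Wild-type fibroblasts were transfected with a scramble siRNA or with an siRNA against the linker histone H1.0 (40 nM). Each siRNA was then combined with TGF-β (10 ng/ml) or its vehicle, which made 4 groups of 3 biological replicates. Every group was kept for 24 h in medium with 0.1% serum before TGF-β or vehicle. The cells had been grown out of enzymatically digested hearts on plastic, so each library is a culture that can hold other cell types, and from such libraries fewer cells of a type and less RNA per cell cannot be told apart.

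Fibrillar collagens are made as procollagen chains that fold in threes into a rod, are trimmed at both ends outside the cell, and assemble into the fibers that give tissue its tensile strength. Type I (chains of Col1a1 and Col1a2) and type III (Col3a1) make up most of the fibers of the heart, type II (Col2a1) those of cartilage. The minor chains of types V (Col5a1, Col5a2, Col5a3) and XI (Col11a1, with Col2a1 and Col11a2) sit inside these fibers and set their number and width, and types XXIV (Col24a1) and XXVII (Col27a1) form a separate branch of the family known from bone and cartilage. TGF-β is the cytokine best known for turning fibroblasts into matrix-producing cells.

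What these chains share in sequence is the glycine at every 3rd residue, without which the rod cannot form. In the coding sequence of the main transcript of each gene (GENCODE M21), the longest run with a glycine codon (GGN) at every 3rd codon was 338 triplets for Col1a1, 339 for Col1a2 and Col2a1, and 344 for Col3a1. It was 338 for Col5a1 and Col11a1, 339 for Col5a2 and 337 for Col5a3. Col24a1 and Col27a1 stood apart with shorter unbroken runs of 216 and 217 triplets, which was 37.4% and 35.3% of their codons against 69.8% in Col1a1 and 56.2% in Col11a1. The start of that run is given for a pair of major chains and for the minor chains with the widest differences between the groups, as 54 bases of the coding strand with the glycine codons of the repeat in capitals. Each stretch spans a pair of exons on GRCm38, at chr11:94939451-94939741 (+) for Col1a1, chr1:45323762-45325377 (+) for Col3a1, chr3:114105402-114108289 (+) for Col11a1, chr3:145325728-145328775 (+) for Col24a1 and chr4:63244040-63245113 (+) for Col27a1.
Col1a1: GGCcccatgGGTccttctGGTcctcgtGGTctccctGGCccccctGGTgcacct
Col3a1: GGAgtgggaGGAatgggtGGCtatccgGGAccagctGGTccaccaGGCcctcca
Col11a1: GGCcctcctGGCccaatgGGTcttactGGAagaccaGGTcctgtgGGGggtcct
Col24a1: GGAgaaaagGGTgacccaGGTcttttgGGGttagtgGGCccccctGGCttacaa
Col27a1: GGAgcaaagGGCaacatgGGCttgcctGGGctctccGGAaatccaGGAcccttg

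The levels of the 10 genes covered a wide range. On the TPM scale, which corrects for transcript length, Col3a1 was the 12th most abundant of all genes in scramble cells given vehicle, at 5360 ± 292 (SD, n = 3). This TPM includes transcripts that are not coding, and with coding transcripts alone its ratio to Col1a1 in that group was 1.32 instead of 1.69. Col1a2 (3411 ± 226.1) and Col1a1 (3180 ± 182.1) followed at ranks 23 and 25, and their ranges in that group overlapped. Col5a2 (1837 ± 120.5) and Col5a1 (373.4 ± 30.6) were the most abundant minor chains. Col11a1 stood at 84.6 ± 8.65, Col27a1 at 24.4 ± 5.44 and Col5a3 at 24.3 ± 6.57 TPM, and Col27a1 and Col5a3 did not differ beyond their spread. Col2a1 (4.91 ± 3.06) and Col24a1 (1.55 ± 1.02) were the lowest of the 10, at ranks 10973 and 12788 of the 35523 genes. Together the 10 genes took 3.83% ± 0.224 of the counts of a library in scramble cells given vehicle, 3.92% ± 0.141 with TGF-β, 4.47% ± 0.0339 with H1.0 siRNA and vehicle, and 4.47% ± 0.232 with H1.0 siRNA and TGF-β (SD, n = 3).

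Differences between groups were measured on counts per gene normalized for library size with edgeR's TMM factors. Library totals ran from 19.9 to 36.3 M estimated counts with a median of 24.2 M. Depth went with the group: scramble libraries had 19.9 to 24.4 M and those of H1.0 siRNA with TGF-β 36.2 to 36.3 M. H1.0 siRNA libraries with vehicle had 22.9, 21.4 and 35.5 M. With counts thinned to the lowest total, 49 of 50 log2 fold changes of the members kept their direction and side of the threshold, and 1 lost its call. The siRNA lowered H1f0, the gene of H1.0, from 2732 ± 269 to 885 ± 251 (SD, n = 3) with vehicle, a log2 fold change of -1.63 ± 0.22 (SE, adjusted p = 2e-04 by edgeR's quasi-likelihood test with Benjamini-Hochberg adjustment). With TGF-β it lowered H1f0 from 2853 ± 60.6 to 743 ± 202 (log2 fold change -1.94 ± 0.22, adjusted p = 5.8e-05 by the same edgeR test). All 8 fibroblast markers examined were present, among them Vim at 2680, Dcn at 1610 and Pdgfra at 229 TPM in scramble cells given vehicle. The cultures also held transcripts of other cells. The 6 macrophage markers summed to a mean of 1200, 856, 950 and 606 TPM in scramble cells with vehicle, scramble cells with TGF-β, and H1.0 siRNA cells with vehicle and with TGF-β, in that order. Most of that sum was Lyz2 (980, 711, 708 and 459 TPM). With vehicle, Adgre1 was 24.4 TPM in scramble and 48.3 in H1.0 siRNA cells and called higher (edgeR adjusted p = 0.0026). Ptprc, Cd68, Csf1r, Mrc1 and Lyz2 were not called in that comparison. The 6 cardiomyocyte markers summed to 186, 144, 19.2 and 12.4 TPM, nearly all of it Tnnt2, while Myh6 and Myl2 had group means of at most 0.43 TPM. Smaller sums were those of the 6 endothelial markers (51, 36, 31.2 and 26.4 TPM), the 6 of pericytes and smooth muscle (46.4, 53.4, 17.5 and 18.2), the 5 of osteoblasts (25.9, 28.1, 19 and 18.4) and the 4 of Schwann cells (3.34, 3.45, 2.13 and 1.98). Within the endothelial sum, Tek was 29.6, 18.3, 7.82 and 7.5 TPM in the same order. With vehicle, Cdh5, Tie1 and Emcn had higher means with H1.0 siRNA and Pecam1 and Kdr lower ones, none of them called. The 8 fibroblast markers themselves summed to 5870, 4060, 5460 and 4190 TPM, most of it Vim and Dcn, and single markers moved in opposite directions. With vehicle, Thy1 was 69.5 TPM in scramble and 13.2 in H1.0 siRNA cells and Pdgfrb 209 and 87.3, both called lower (edgeR adjusted p = 0.0024 and 4.2e-05), while Dcn was 1610 and 2220 and called higher (edgeR adjusted p = 0.0014). With TGF-β in scramble cells Pdgfra went from 229 to 87.3 TPM and Dcn from 1610 to 685 (edgeR adjusted p = 0.0024 and 2.8e-05). The part of these shifts in the values that follow was not tested.

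**Figure D1:**
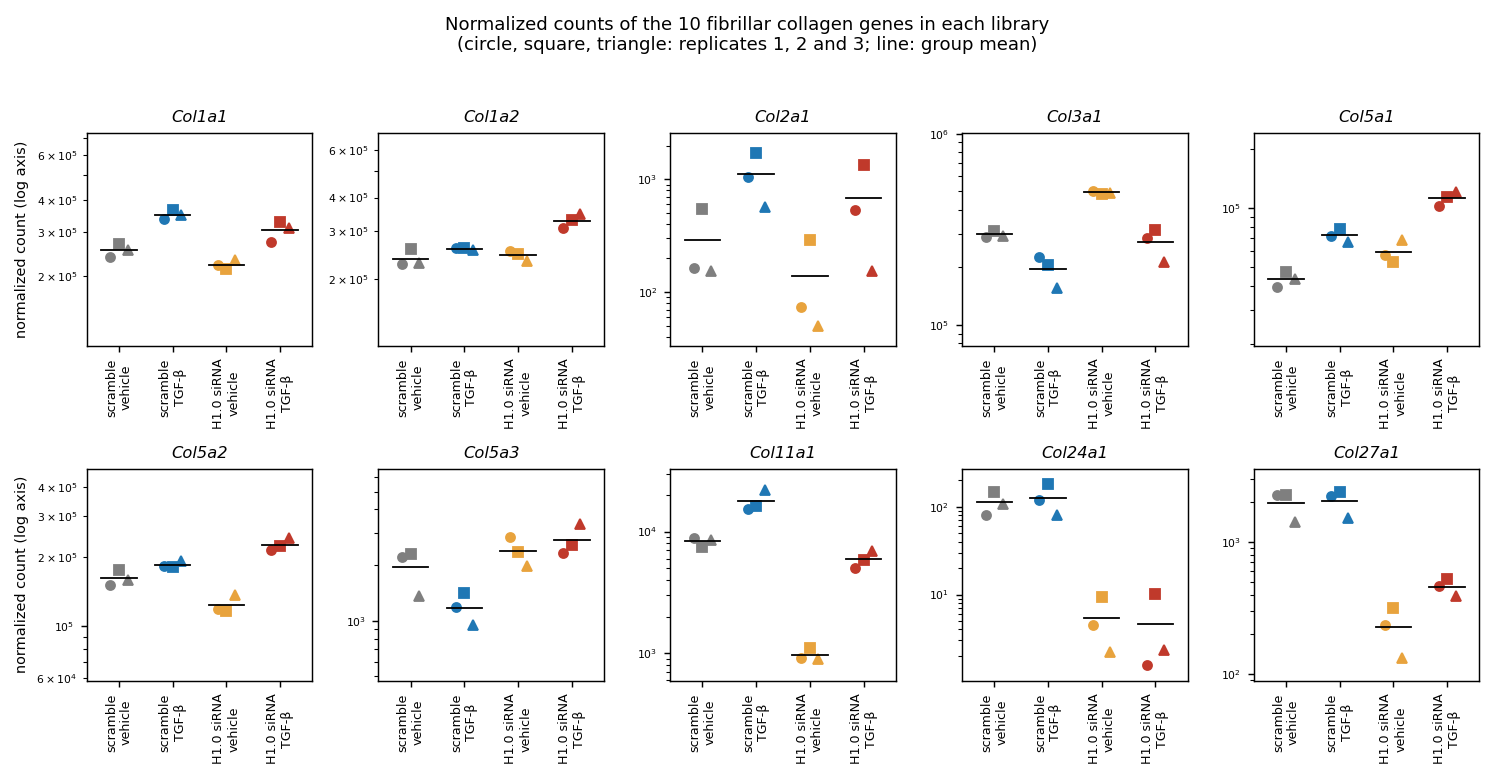
Normalized counts (log axis) of each fibrillar collagen gene in the 12 libraries, with 3 replicates per group as a circle, a square and a triangle and the group mean as a line. Col11a1, Col24a1 and Col27a1 were lower in every H1.0 siRNA library than in every scramble library, from a mean of 8306 to 971 for Col11a1 with vehicle, while Col3a1 was highest in H1.0 siRNA cells given vehicle (492500).

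The first question was what TGF-β does to the collagen genes in cells given scramble siRNA. In scramble cells Col1a1, Col5a1 and Col11a1 rose with TGF-β, by 1.38, 1.68 and 2.15 fold, 7 members did not pass the threshold and 0 were called lower. A call is an adjusted p under 0.01 by edgeR's quasi-likelihood test with Benjamini-Hochberg adjustment over all genes tested. The 3 of 10 called higher stand beside 10.5% of all genes, and the 0 called lower beside 7.94%. These shares fell on leaving out single libraries, which also leaves fewer replicates to test with, and the largest falls are given. The 1893 genes called higher became 1037 without replicate 1 of scramble with vehicle, 1078 without its replicate 2 and 1152 without replicate 3 of scramble with TGF-β, and the 1431 called lower became 834, 837 and 824, and 861 without replicate 2 of scramble with TGF-β. Col3a1 and Col5a3 were the 2 members with an unadjusted p under 0.05 and lower values, of which DESeq2 called both (12.6% of its genes were lower) and limma-voom called Col3a1 (7.18%). With the replicate number as a block in the edgeR fit, Col2a1 was also called higher and Col3a1 lower, where 15.4% and 13% of all genes were called. The median log2 fold change of the 10 members was 0.19, against -0.01 over all genes tested.

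The same question was asked in cells transfected with H1.0 siRNA. There TGF-β raised 5 members, Col1a1, Col1a2, Col5a1, Col5a2 and Col11a1, by 1.34 to 6.11 fold, and lowered Col3a1, and 4 did not pass. The background was 9.14% of genes higher and 6.6% lower. Its 1648 higher genes became 940 and 967 without replicate 1 or 2 of H1.0 siRNA with vehicle, and its 1190 lower genes 649 and 683, and 677 without replicate 3 of H1.0 siRNA with TGF-β. Col27a1 was also called higher by DESeq2 (15.1% of its genes higher), and Col2a1 and Col27a1 with the replicate block (14.2%). The median of the members was 0.66 on the log2 scale and that of all genes -0.01.

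The next question was what H1.0 siRNA does under TGF-β. Col5a1 and Col5a3 were higher than with scramble, by 1.55 and 2.32 fold, and Col11a1, Col24a1 and Col27a1 were lower, by 3.01, 26.7 and 4.47 fold. The remaining 5 members, among them all 4 major chains, did not pass in this fit. Of the major chains Col1a2 was called higher by DESeq2 and limma-voom, where 15.2% and 12.7% of genes were, and with the replicate block Col1a2 and Col3a1 were called higher and Col2a1 lower, where 17.6% and 16% of genes were. Of all genes, 13% were called higher and 11.3% lower, and the median log2 fold change was 0.04 for the members and 0.04 for all genes.

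With vehicle, H1.0 siRNA raised Col3a1 and Col5a1 and lowered Col5a2, Col11a1, Col24a1 and Col27a1. The 2 of 10 members called higher stand beside 13.4% of all genes and the 4 of 10 called lower beside 11.2%. The median log2 fold change of the members was -0.29, against 0.00015 over all genes. The 2 siRNA comparisons and the 2 TGF-β comparisons share libraries with each other, so a gene that is high or low in 1 group moves in 2 of them.

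The interaction asked whether the TGF-β effect differed between the siRNAs. edgeR called 0 of 10 members in either direction, where the share of all genes called was 0.0333% for a higher effect in H1.0 siRNA cells and 0.0111% for a lower effect. At an unadjusted p under 0.05 by edgeR there were 2149 of the 18028 genes tested. Of the members, Col1a2 (0.04), Col5a2 (0.00049), Col5a3 (0.013), Col11a1 (2.3e-05) and Col27a1 (0.032) had such a p. Each of these had a higher effect in H1.0 siRNA cells. The median log2 interaction was 0.34 for the members and 0.02 for all genes. DESeq2 called 2 members higher, Col11a1 and Col5a2, beside 0.817% of its genes higher and 0.958% lower (110 and 129 genes). edgeR with the replicate number as a block called 1, Col11a1, beside 0.41% higher and 0.244% lower (74 and 44 genes). Libraries of the same replicate number deviated together from their group means, so the blocked value is given for each member whose call it changes.

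**Figure D2:**
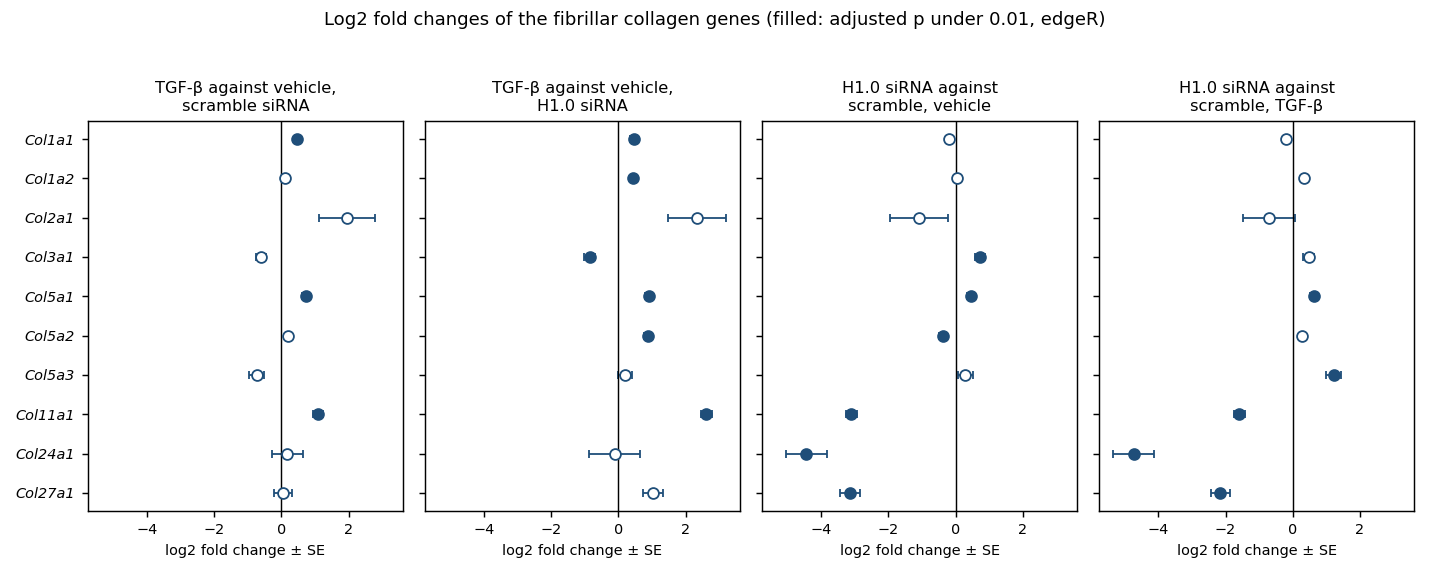
Log2 fold change of each fibrillar collagen gene with its standard error (bars) in the 4 pairwise comparisons, filled where edgeR's adjusted p was under 0.01. Both TGF-β panels have Col1a1, Col5a1 and Col11a1 filled to the right of 0, and both siRNA panels have Col11a1, Col24a1 and Col27a1 filled to the left, between -1.59 and -4.74.

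Col1a1 encodes the α1 chain of type I collagen, present in 2 copies in each molecule beside 1 of Col1a2. It lies on chromosome 11 (chr11:94936224-94953042, +, with all gene positions on GRCm38), and 99.91% of its reads were assigned to a transcript of 51 exons. The scramble libraries given vehicle had 237400, 269300 and 252900 normalized counts, and those given TGF-β 336000, 365800 and 349000. The 2 groups did not overlap, with a log2 fold change of 0.47 ± 0.10 (SE, adjusted p = 0.0044 by edgeR). Without any one of the 6 scramble libraries the call was lost, with an adjusted p of up to 0.023. In H1.0 siRNA cells the counts went from 220900, 213400 and 232400 with vehicle to 273300, 325900 and 311000 with TGF-β, again without overlap (0.45 ± 0.10, edgeR adjusted p = 0.0062). That call was lost on leaving out any of 6 libraries, namely replicates 1 and 2 of both scramble cells with TGF-β and H1.0 siRNA cells with vehicle, or replicates 2 and 3 of H1.0 siRNA cells with TGF-β (edgeR adjusted p up to 0.027). The siRNA libraries were below the scramble libraries under each treatment, but the differences of -0.19 with vehicle and -0.21 with TGF-β on the log2 scale did not pass (edgeR adjusted p = 0.17 and 0.13). The TGF-β effect was nearly equal under both siRNAs, with an interaction of -0.02 ± 0.14 that changed sign without some single libraries.

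Col1a2, the α2 chain of type I collagen (chr6:4504814-4541544, +), was called for TGF-β with H1.0 siRNA and not with scramble, but the interaction did not pass. Scramble cells had 225800, 256800 and 229000 normalized counts with vehicle, and 260300, 259500 and 255200 with TGF-β, ranges that overlapped (log2 fold change 0.12 ± 0.09, edgeR adjusted p = 0.34). With H1.0 siRNA the counts were 252500, 246900 and 233300 with vehicle, against 307300, 328800 and 346200 with TGF-β. This rise did not overlap and passed (0.42 ± 0.09, edgeR adjusted p = 0.0055), although 7 of the 12 libraries, all 3 of H1.0 siRNA with vehicle, replicates 2 and 3 of H1.0 siRNA with TGF-β and replicates 1 and 2 of scramble with TGF-β, each ended the call when left out (edgeR adjusted p up to 0.018). Under TGF-β every H1.0 siRNA library lay above every scramble library, with a log2 difference of 0.34 ± 0.09 that missed the threshold (edgeR adjusted p = 0.012) and passed with the replicate block (adjusted p = 0.0033), DESeq2 (0.00021) and limma-voom (0.0045). The interaction was 0.30 ± 0.13 (edgeR adjusted p = 0.39).

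Col3a1 encodes the chain of type III collagen, the fine fibers of compliant tissue such as vessel walls, and had the opposite sign to Col1a1 in all 4 pairwise comparisons. It lies at chr1:45311538-45349706 (+), with its 3′ end 24.6 kb from that of Col5a2 on the opposite strand, and a miRNA gene, Gm47302, overlaps its exons. Scramble libraries had 288700, 311100 and 292000 normalized counts with vehicle, and 225200, 206000 and 155900 with TGF-β. All 3 TGF-β libraries were lower, and the log2 fold change of -0.60 ± 0.16 missed the threshold (edgeR adjusted p = 0.014) but passed with the replicate block (-0.62, adjusted p = 0.0016), DESeq2 (0.00049) and limma-voom (0.0094). In H1.0 siRNA cells it stood at 502100, 486500 and 488800 with vehicle, its highest group, and at 286000, 315300 and 212500 with TGF-β. Here it fell by 0.86 ± 0.16 on the log2 scale (edgeR adjusted p = 0.0025), a call that was lost only without replicate 1 of H1.0 siRNA with vehicle (adjusted p = 0.01).

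The siRNA raised Col3a1 with vehicle by 0.73 ± 0.16 on the log2 scale (1.66 fold, edgeR adjusted p = 0.0041), and the groups did not overlap. The adjusted p rose to at most 0.016 when any of the 6 vehicle libraries was left out, which ended the call. Under TGF-β the siRNA and scramble libraries overlapped for Col3a1, with a difference of 0.47 ± 0.16 (edgeR adjusted p = 0.039, 0.007 with the replicate block and 0.0078 with an offset for transcript length). Replicate 3 had the lowest count of Col3a1 in both TGF-β groups. Without replicate 3 of H1.0 siRNA with TGF-β, this difference and that of TGF-β in scramble cells both passed (edgeR adjusted p = 0.0068 and 0.005). The interaction was -0.26 ± 0.23 (edgeR adjusted p = 0.72).

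Col2a1, the chain of cartilage type II collagen (chr15:97975602-98004695, -), was scarce and uneven. Of its reads 73.27% went to a first and 25.02% to another coding transcript. Its normalized counts with vehicle were 164.5, 548.5 and 153.5 in scramble cells and 74.2, 292.4 and 50.3 in H1.0 siRNA cells. With TGF-β they were 1054, 1714 and 570.8 in scramble cells and 538.5, 1347 and 155.3 in H1.0 siRNA cells. Replicate 2 was the highest in all 4 groups and replicate 3 the lowest. TGF-β went with 3.86 times the count in scramble cells and 5.03 times in H1.0 siRNA cells, but the spread was wide and neither passed (edgeR adjusted p = 0.097 and 0.065). With the replicate block both did, at log2 fold changes of 2.09 (adjusted p = 0.00017) and 2.24 (adjusted p = 0.00016), and so did the siRNA under TGF-β, at -0.997 (adjusted p = 0.0091, against 0.54 without the block). The cartilage genes examined as chondrocyte markers summed to a mean of 199, 250, 111 and 100 TPM in the 4 groups, in the order scramble vehicle, scramble TGF-β, H1.0 siRNA vehicle and H1.0 siRNA TGF-β. Sox9 and Comp made up most of that sum, Acan rose with TGF-β in scramble cells from 2.03 to 53.9 TPM (edgeR adjusted p = 0.0019), and Matn1 and Col9a1 were at or near 0. Their part in the Col2a1 values was not tested.

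Among the minor chains, Col5a1 was the member called higher in all 4 pairwise comparisons. It encodes the α1 chain of type V collagen, which is needed to start type I fibers, and lies at chr2:27886425-28039514 (+). Its exons overlap 2 genes on the other strand, 2810430I11Rik and Gm13372. Scramble libraries had 39370, 46980 and 43090 normalized counts with vehicle, and 71650, 78570 and 66900 with TGF-β. H1.0 siRNA libraries had 57320, 52640 and 68710 with vehicle, against 102100, 114300 and 121100 with TGF-β. No groups overlapped between TGF-β and vehicle under either siRNA, nor between the siRNAs under either treatment. TGF-β raised it by 0.75 ± 0.12 on the log2 scale in scramble cells (edgeR adjusted p = 9e-04) and by 0.92 ± 0.12 in H1.0 siRNA cells (edgeR adjusted p = 0.00029). The siRNA raised it under TGF-β by 0.64 ± 0.12 (edgeR adjusted p = 0.0015). With vehicle the siRNA effect of 0.47 ± 0.12 only just passed (edgeR adjusted p = 0.0093). It did not pass with RLE size factors, with edgeR's own filter on low counts, with an offset for transcript length, with counts thinned to the lowest total, or without 10 of the 12 libraries (all but replicate 2 of H1.0 siRNA with vehicle and replicate 3 of H1.0 siRNA with TGF-β), with adjusted p up to 0.047.

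Col5a2, the α2 chain of type V collagen (chr1:45374321-45503282, -), had both its lowest and its highest count among the H1.0 siRNA libraries. In scramble cells it had 151100, 174800 and 159500 normalized counts with vehicle, and 182300, 180100 and 192700 with TGF-β. These did not overlap, but the log2 fold change of 0.19 ± 0.10 did not pass (edgeR adjusted p = 0.16). With H1.0 siRNA it had 118400, 116300 and 136800 with vehicle, against 213900, 222000 and 240700 with TGF-β, a rise of 0.87 ± 0.10 (edgeR adjusted p = 0.00013). The siRNA lowered it with vehicle by 0.39 ± 0.10 (edgeR adjusted p = 0.0093), a call that was lost without a filter on low counts and without 10 of the 12 libraries (all but replicate 3 of both H1.0 siRNA groups, adjusted p up to 0.044). Under TGF-β every siRNA library lay above every scramble library, with a difference of 0.29 ± 0.10 (edgeR adjusted p = 0.041). The interaction was 0.67 ± 0.14, which did not pass by edgeR (adjusted p = 0.066) and did by DESeq2 (adjusted p = 5.3e-05).

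Col5a3, the rarer α3 chain of type V collagen (chr9:20770050-20815067, -), differed between the siRNAs under TGF-β. Scramble libraries had 2202, 2303 and 1355 normalized counts with vehicle, and 1184, 1406 and 945.4 with TGF-β, with an overlap between replicate 3 with vehicle and replicate 2 with TGF-β (log2 fold change -0.73 ± 0.22, edgeR adjusted p = 0.028, 0.0054 without replicate 3 of scramble with vehicle and 0.0074 by DESeq2). H1.0 siRNA libraries had 2837, 2356 and 1977 with vehicle, against 2322, 2555 and 3328 with TGF-β. The siRNA raised it under TGF-β by 1.22 ± 0.22 on the log2 scale (edgeR adjusted p = 0.0014), without overlap. A retained-intron transcript took 6.45% of its reads in scramble cells with vehicle and 4.9% with TGF-β, against 1.45% and 1.79% in H1.0 siRNA cells. With vehicle the siRNA difference was 0.29 ± 0.22 (edgeR adjusted p = 0.35), and the interaction was 0.93 ± 0.31 (edgeR adjusted p = 0.25).

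Col11a1 had the widest TGF-β effects of the called members. It encodes the α1 chain of type XI collagen, which in cartilage nucleates the thin fibers, and lies at chr3:114030540-114220718 (+). Scramble libraries had 8920, 7494 and 8503 normalized counts with vehicle, and 15270, 16330 and 21960 with TGF-β, and the groups did not overlap (log2 fold change 1.10 ± 0.15, edgeR adjusted p = 0.00043). H1.0 siRNA libraries had 920.5, 1107 and 886.6 with vehicle, 8.56 times lower than scramble on the fitted scale (-3.10 ± 0.17, edgeR adjusted p = 5.2e-07). With TGF-β they rose to 5028, 5878 and 6880 (2.61 ± 0.16, edgeR adjusted p = 4.3e-06). Even the highest of these stayed below the lowest scramble library given vehicle, 7494. Against scramble cells given TGF-β the difference was -1.59 ± 0.16 (edgeR adjusted p = 1.9e-05). The TGF-β effect was larger in H1.0 siRNA cells by 1.51 ± 0.22 on the log2 scale, with an adjusted p of 0.023 by edgeR, 0.0045 with the replicate block and 4.3e-07 by DESeq2.

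Col24a1 had the widest siRNA effects. Type XXIV collagen is a scarce chain described in developing bone, and the gene lies at chr3:145292472-145552011 (+). Scramble libraries had 81.7, 148.9 and 106.9 normalized counts with vehicle, and 119.9, 182 and 80.6 with TGF-β. H1.0 siRNA libraries had 4.50, 9.47 and 2.22 with vehicle, against 1.55, 10.0 and 2.33 with TGF-β, from 2 to 13 estimated reads each. No scramble library came near an siRNA library. The mean went from 112.5 ± 34.0 to 5.40 ± 3.71 with vehicle (log2 fold change -4.45 ± 0.61, edgeR adjusted p = 2e-04) and from 127.5 ± 51.1 to 4.64 ± 4.69 with TGF-β (-4.74 ± 0.60, edgeR adjusted p = 0.00011). From the 15 and 18 reads summed over the siRNA libraries the ratio was 22.4 times lower with vehicle (95% interval 13.3 to 40.6) and 27 times lower with TGF-β (16.8 to 46.2), exact intervals that cover counting error only. TGF-β effects of 0.18 ± 0.46 and -0.11 ± 0.76 on the log2 scale did not pass (edgeR adjusted p = 0.81 and 0.94). With so few reads and a standard error of 0.76, a small or moderate change in siRNA cells was not detectable at this depth.

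Col27a1, the chain of type XXVII collagen of cartilage (chr4:63214004-63334991, +), had 2262, 2265 and 1424 normalized counts in scramble cells with vehicle, and 2232, 2399 and 1518 with TGF-β. These ranges overlapped (log2 fold change 0.05 ± 0.27, edgeR adjusted p = 0.92). H1.0 siRNA cells had 233.8, 314.9 and 133.1 with vehicle, against 461.6, 521.4 and 393 with TGF-β, all below the scramble libraries. The siRNA lowered it by 3.14 ± 0.31 with vehicle (edgeR adjusted p = 2e-05) and by 2.16 ± 0.29 with TGF-β (edgeR adjusted p = 0.00016). Between vehicle and TGF-β the H1.0 siRNA libraries did not overlap, and the difference of 1.03 ± 0.29 passed with the replicate block (adjusted p = 6.9e-05) and by DESeq2 (0.0022) but not by edgeR without the block (adjusted p = 0.022). Of its reads 73.56% were assigned to a coding transcript, 15.07% to transcripts of nonsense-mediated decay and 10.89% to retained introns, and replicate 3 was the lowest in all 4 groups. Mean marker sums of chondrocytes, given with Col2a1, and of cardiomyocytes were also lower with the siRNA under both treatments. So were those of macrophages, endothelial cells, pericytes and smooth muscle, osteoblasts and Schwann cells, and that of fibroblasts with vehicle only. The part of these sums in Col11a1, Col24a1 and Col27a1 was not tested.

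The stretch of DNA before the start of a gene is shown for 3 members whose counts separated the groups in different ways. Col3a1 was lower with TGF-β, a fall called in H1.0 siRNA cells and not in scramble cells, and higher with the siRNA given vehicle. Col11a1 responded upwards to TGF-β and downwards to the siRNA, and Col24a1 differed between the siRNAs alone. RefSeq promoters of build GRCm38.p6 matched 7 of the 10 members, with Col1a1, Col2a1 and Col5a2 without an entry. The 250 bases before the start are printed, on the + strand at chr1:45311288-45311537 for Col3a1, chr3:114030290-114030539 for Col11a1 and chr3:145292222-145292471 for Col24a1. Capitals mark matches on either strand to the CCAAT box (CCAAT), the SMAD box (CAGAC), the GC box (GGGCGG) and the TATA box (TATAAA), and no match overlaps another.
Col3a1: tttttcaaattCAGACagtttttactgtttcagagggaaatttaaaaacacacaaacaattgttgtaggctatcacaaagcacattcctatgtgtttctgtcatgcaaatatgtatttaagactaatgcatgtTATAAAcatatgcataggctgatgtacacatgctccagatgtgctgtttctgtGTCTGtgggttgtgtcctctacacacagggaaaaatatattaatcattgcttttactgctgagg
Col11a1: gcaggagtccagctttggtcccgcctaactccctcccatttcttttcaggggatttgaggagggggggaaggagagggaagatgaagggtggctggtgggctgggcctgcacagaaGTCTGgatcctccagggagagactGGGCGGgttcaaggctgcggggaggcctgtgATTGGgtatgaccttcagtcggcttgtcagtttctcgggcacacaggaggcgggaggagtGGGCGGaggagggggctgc
Col24a1: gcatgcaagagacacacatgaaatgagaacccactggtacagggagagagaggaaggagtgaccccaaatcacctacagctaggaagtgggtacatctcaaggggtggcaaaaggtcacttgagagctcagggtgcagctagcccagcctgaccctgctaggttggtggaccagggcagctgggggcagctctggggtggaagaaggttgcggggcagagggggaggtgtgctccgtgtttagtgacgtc
Col3a1 held 2 SMAD boxes and a TATA box in a window of 35.2% G and C. Col11a1 held a CCAAT box, a SMAD box and 2 GC boxes at 62.4% G and C, and Col24a1 held none of the 4 motifs. Over the 7 members the SMAD box was found in 5, the GC box in 5, the CCAAT box in 3 and the TATA box in 1. In all 32841 promoter windows of the same length without an unread base these were found in 42.2%, 32.7%, 33.9% and 12.4%. A match is only a run of letters and says nothing about binding.

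Because several chains are joined in fixed numbers in a molecule, proportions between chains were computed in each library from TPM. They are ratios of RNA, which do not measure the chains of protein, and a description with no test. Col1a1 over Col1a2 was 0.91, 0.92 and 0.969 in scramble cells with vehicle, and 1.14, 1.26 and 1.21 with TGF-β. Libraries of H1.0 siRNA given vehicle had ratios of 0.761, 0.758 and 0.887, and those given TGF-β 0.794, 0.886 and 0.807. The ratio was thus above 1 in scramble cells given TGF-β and below 1 in the other 9 libraries, and it overlapped between treatments in H1.0 siRNA cells. From counts not corrected for length the mean with scramble and vehicle was above 1 as well, at 1.07.

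Col3a1 over Col1a1, the balance of type III to type I RNA, was 1.69 ± 0.0275 in scramble cells with vehicle and 0.824 ± 0.172 with TGF-β. In H1.0 siRNA cells it was 3.35 ± 0.022 with vehicle and 1.47 ± 0.235 with TGF-β (SD, n = 3). It was lower with TGF-β under both siRNAs and higher with H1.0 siRNA under both treatments, without overlap. From coding transcripts alone the means were 1.32 and 0.638 in scramble cells and 2.55 and 1.05 in H1.0 siRNA cells, in the same order. Col5a1 over Col1a1 ran from 0.117 ± 0.0029 and 0.141 ± 0.00938 in scramble cells to 0.184 ± 0.0178 and 0.254 ± 0.0137 in H1.0 siRNA cells, with vehicle and TGF-β in that order. Col5a2 over Col5a1, which are joined as 1 Col5a2 chain with 2 Col5a1 chains in the common type V molecule, was 4.93 ± 0.0916 in scramble cells with vehicle and between 2.53 and 3.78 in every other library. The minor chains held 16.4% ± 0.147 of the TPM of all 10 genes in scramble cells with vehicle and 20.1% ± 1.29 with TGF-β. With H1.0 siRNA they held 11% ± 0.728 with vehicle and 20.4% ± 1.6 with TGF-β, so that the TGF-β groups overlapped and the vehicle groups did not.

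**Figure D3:**
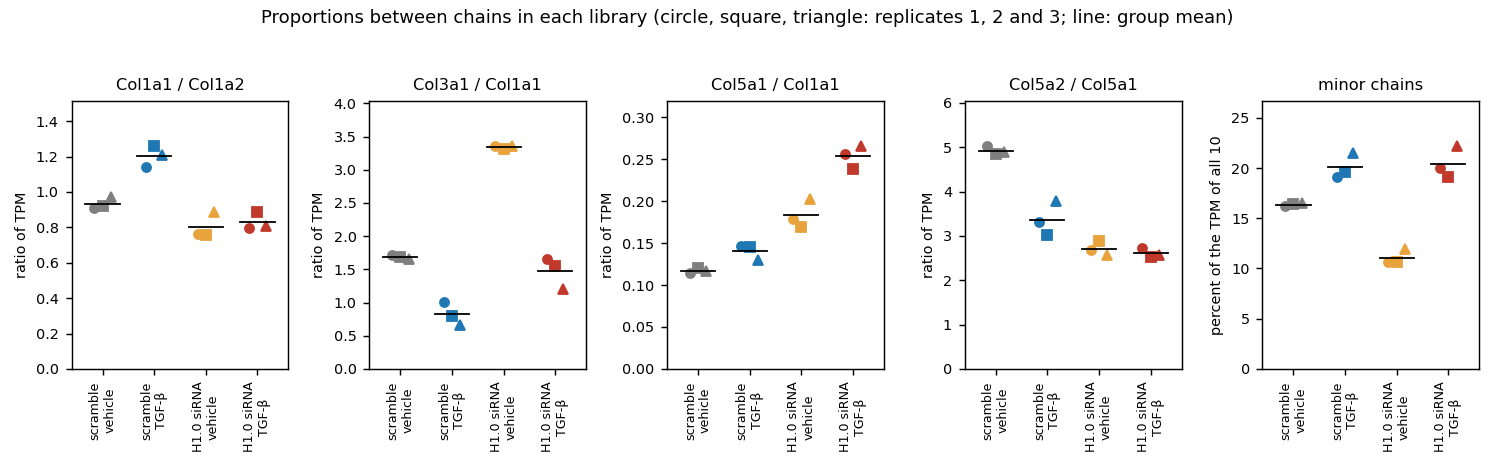
Proportions between fibrillar collagen chains in each of the 12 libraries, as ratios of TPM and, at the right, as the percentage of the TPM of all 10 genes held by the 6 minor chains, with replicates as a circle, a square and a triangle and group means as lines. Col3a1 over Col1a1 lay between 3.32 and 3.36 in H1.0 siRNA cells given vehicle and at most 1.71 elsewhere.

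Collagen chains need a set of other proteins to become fibers, and 91 genes with such roles were followed beside the members. The list was chosen with earlier results of these data known, so its shares are a description and no test of the list. In scramble cells TGF-β raised 30 of the 91 (33%, against 10.5% of all genes) and lowered 14 (15.4%, against 7.94%). In H1.0 siRNA cells it raised 32 (35.2%, against 9.14%) and lowered 10 (11%, against 6.6%). The siRNA raised 10 under TGF-β (11%, against 13% of all genes) and lowered 15 (16.5%, against 11.3%). With vehicle it raised 10 (11%, against 13.4%) and lowered 16 (17.6%, against 11.2%). The edgeR interaction called 0 of the 91, with 15 at an unadjusted p under 0.05. The median log2 fold change of the list was 0.19 and 0.23 for TGF-β and 0.00291 and -0.12 for the siRNA, beside the all-gene medians given above.

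Of the 16 genes that fold and hydroxylate the chains in the endoplasmic reticulum, TGF-β raised 9 and lowered 0 in scramble cells, and 4 were higher with the siRNA under TGF-β. Counts for this and the following roles are read against 10.5% of all genes higher and 7.94% lower with TGF-β in scramble cells, and 13% higher and 11.3% lower with the siRNA under TGF-β. Fkbp10, a prolyl isomerase of procollagen, rose by 1.12 ± 0.16 on the log2 scale (edgeR adjusted p = 0.00045) and P3h1, a prolyl hydroxylase, by 1.00 ± 0.15 (edgeR adjusted p = 0.00067). P4ha2, a subunit of prolyl 4-hydroxylase, and Colgalt1, which adds galactose to hydroxylysine, were higher with the siRNA under TGF-β, by 0.80 ± 0.12 and 0.74 ± 0.10 (edgeR adjusted p = 0.00046 and 0.00014). Of the 6 secretion genes 3 rose with TGF-β, Sec13 and Sec23a of the COPII coat among them (0.81 ± 0.10 and 0.59 ± 0.10, edgeR adjusted p = 0.00022 and 0.0011), and Mia2, a cargo adaptor for large proteins, was higher with the siRNA by 0.87 ± 0.08 (edgeR adjusted p = 1.2e-05).

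Outside the cell, of the 8 genes for proteinases that trim procollagen and their enhancers, TGF-β raised 2 and lowered 1 in scramble cells and 5 did not pass, and with the siRNA under TGF-β 2 were lower and 0 higher. Of the proteinases, Tll1 and Bmp1 rose with TGF-β in scramble cells (2.89 ± 0.41 and 0.49 ± 0.08 on the log2 scale, edgeR adjusted p = 5e-04 and 0.0012), and Pcolce, which enhances their action, fell by 0.47 ± 0.07 (edgeR adjusted p = 0.00043). Bmp1 was lower with the siRNA under TGF-β, by 0.37 ± 0.08 (edgeR adjusted p = 0.0042), as was Pcolce2, by 0.94 ± 0.22 (edgeR adjusted p = 0.0059). Of the 6 crosslinking enzymes TGF-β raised 3 and lowered 0 in scramble cells, with Loxl3 at 1.57 ± 0.21 and Loxl4 at 1.53 ± 0.30 (edgeR adjusted p = 0.00037 and 0.0031). Loxl1 was the 1 crosslinking gene lower with the siRNA under TGF-β (by 0.77 ± 0.08, edgeR adjusted p = 2.5e-05).

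Among the 18 proteins that bind fibrils, TGF-β raised 4 and lowered 6 in scramble cells, and 2 were higher and 7 lower with the siRNA under TGF-β. Tnc and Postn, matricellular proteins of wounds, rose with TGF-β (2.51 ± 0.26 and 2.22 ± 0.19, edgeR adjusted p = 8.4e-05 and 3.9e-05), and the small leucine-rich proteoglycans Prelp and Ogn fell (-2.31 ± 0.48 and -1.47 ± 0.19, edgeR adjusted p = 0.0038 and 0.00027). Dcn, the proteoglycan decorin that limits fibril width, and Sparc, a collagen-binding protein, were higher with the siRNA under TGF-β (0.85 ± 0.09 and 0.41 ± 0.09, edgeR adjusted p = 4.2e-05 and 0.0042). Thbs2 and Dpt, which both affect fibril assembly, were lower (-2.21 ± 0.37 and -1.34 ± 0.15, edgeR adjusted p = 0.00069 and 4.4e-05).

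Of the 11 receptors and uptake genes, TGF-β raised 2 and lowered 2 in scramble cells. For the siRNA under TGF-β edgeR called 0 of the 11, and 3 had an unadjusted p under 0.05. Itga11, the collagen-binding integrin subunit of fibroblasts, rose by 1.13 ± 0.13 and Ddr2, a collagen-activated kinase, fell by 0.65 ± 0.10 (edgeR adjusted p = 0.00017 and 0.00069). Of the 9 collagenases and their inhibitors, TGF-β raised 4 and lowered 2 in scramble cells. Timp1 and Mmp9 had the widest rises (1.92 ± 0.25 and 1.91 ± 0.33, edgeR adjusted p = 0.00031 and 0.0015), and Timp2 and Mmp2 fell (-0.92 ± 0.18 and -0.37 ± 0.08, edgeR adjusted p = 0.0025 and 0.0039). Mmp14, the membrane-bound collagenase, was higher with the siRNA under TGF-β by 0.58 ± 0.13, and Mmp9 and Timp2 were lower (-1.58 ± 0.32 and -1.26 ± 0.18, edgeR adjusted p = 0.0038, 0.0025 and 0.00023).

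Of 16 regulators of collagen transcription or mRNA, TGF-β raised 3 and lowered 3 in scramble cells, and 2 were higher and 2 lower with the siRNA under TGF-β. Scx, a transcription factor of tendon that activates collagen genes, rose with TGF-β by 2.19 ± 0.20 (edgeR adjusted p = 5.2e-05) and was lower with the siRNA by 1.18 ± 0.19 (edgeR adjusted p = 0.00054). Smad3, which carries the TGF-β signal, had the opposite pattern, at -0.90 ± 0.16 and 0.92 ± 0.16 (edgeR adjusted p = 0.0017 and 0.001). Col11a2, the fibrillar chain that is not among the 10 members and a partner of Col11a1, was lower with the siRNA under TGF-β and with vehicle (-1.33 ± 0.26 and -1.28 ± 0.27, edgeR adjusted p = 0.0021 and 0.0031), and its TGF-β differences of 0.66 and 0.61 did not pass (edgeR adjusted p = 0.074 and 0.12).

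**Figure D4:**
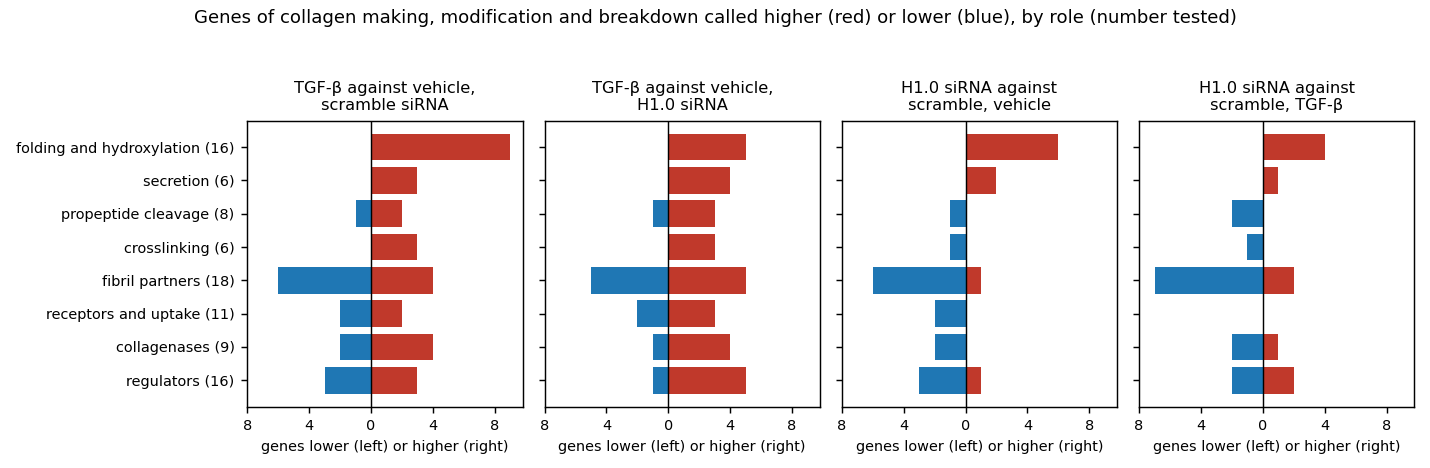
Number of genes called higher (right, red) or lower (left, blue) by edgeR in each role of collagen making, modification and breakdown, for the 4 pairwise comparisons, with the number of genes tested in each role in parentheses. In scramble cells TGF-β raised 9 of 16 folding and hydroxylation genes and lowered 0, while fibril partners had genes on both sides (4 higher and 6 lower). The shares of all genes were 10.5% higher and 7.94% lower in that comparison.

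Genes whose levels ran closest to a member were named for Col1a1 and Col5a1, by the Pearson correlation of log2 CPM over the 12 libraries among 11444 genes with a mean normalized count of at least 100. For Col1a1 they were Hacd1 (r = 0.984), Gpc1 (0.977), Abracl (0.974), 2410131K14Rik (0.972) and Bmpr1b (0.97). For Col5a1 they were Leo1 and Piezo1 (both 0.976), Zdhhc12 (0.975), Ykt6 (0.973) and Sept5 (0.971). The members were left out of the genes compared, so none of them could be named here. No other collagen gene was among these 10. Col1a1 and Col1a2 correlated with each other at only 0.473. Within the family, Col24a1 and Col27a1 (0.93) and Col1a2 and Col5a1 (0.899) were the pairs with the highest r, and Col3a1 and Col11a1 (-0.938) the pair with the lowest. The 12 points share 4 groups and their treatments, so these values describe the groups as much as the libraries.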

How the data were processed

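Per the labels and the study's methods, ribosomal RNA was removed, paired-end reads were sequenced, and the authors quantified transcripts with Salmon on an mm10 index. For each library the authors deposited an estimated count (NumReads) and a TPM value per transcript, with replicates not pooled. The effective length that the authors deposited was used in 1 alternative only.

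Transcripts were matched by identifier to GENCODE M21 on GRCm38, and estimated counts were summed per gene and rounded. TPM was summed for levels and proportions. A sum of at least 10 counts over all 12 libraries was required, and the test was edgeR 4.0.16 (R 4.3.3, TMM, quasi-likelihood test, Benjamini-Hochberg), with all 4 groups in 1 fit and an adjusted p under 0.01 as the threshold. The alternatives included DESeq2 1.42.0 and limma-voom (limma 3.58.1). The edgeR step was checked on simulated counts. That main fit held no term for the replicate number, so its tests were not paired. An alternative fit took the replicate number as a block. The reason was that deviations from the group mean correlated between same-numbered libraries in every pair of groups (0.113 to 0.612). Between other numbers the correlations averaged -0.236 to -0.167. Deviations cancel within a group, so these negative values largely follow from the positive ones and are no separate evidence. The labels do not say what a number shares.

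The members and the lists of genes were chosen with earlier results of these data known. Named were all 10 members, H1f0, up to 2 list genes per role and direction for TGF-β in scramble cells and for the siRNA under TGF-β, and the 5 genes most like Col1a1 and Col5a1. Sequences came from GENCODE M21 transcripts and RefSeq promoters (Python 3, GRCm38.p6).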

Additional observations from a re-analysis of the deposited data

Results flagged for a closer look

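Col11a1 drew attention because its TGF-β effect differed between the siRNAs by a direct test of the difference, 1.51 on the log2 scale, once the replicate number was a block (edgeR adjusted p = 0.0045). Without the block the adjusted p was 0.023, and leaving out single libraries gave values from 1.39 to 1.68 on the log2 scale. In both arms all 3 libraries given TGF-β were above all 3 given vehicle. No explanation of the difference was tested.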

How the results depend on the processing

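Of 1100 log2 fold changes of the members recomputed under the alternatives, 1001 kept their direction and their side of the threshold, 51 lost a call, 28 gained one and 20 changed sign, each of these 20 without a call on either side. The TGF-β effect of Col24a1 in scramble cells became -0.23 with the length offset. Without single libraries this effect ranged from -0.165 to 0.433, that of Col27a1 from -0.144 to 0.223, and that of Col24a1 in H1.0 siRNA cells from -1.32 to 0.539. The interaction ranged from -0.0732 to 0.051 for Col1a1, from -0.591 to 1.53 for Col2a1 and from -1.49 to 0.36 for Col24a1. Members called lower with TGF-β in scramble cells were 0 (0 to 1 without single libraries), beside 7.94% of all genes. With DESeq2 they were 2 and with limma-voom 1, beside 12.6% and 7.18% of genes. At an adjusted p under 0.05 they were 2, where 2584 of the 18028 genes tested were lower. Members called higher with the siRNA were 2 with vehicle, beside 13.4% of all genes in the main fit. They were 1 with RLE size factors, edgeR's own filter, the offset for transcript length or thinned counts (0 to 2 without single libraries). Under TGF-β they were 2, beside 13% of all genes, and 5 at an adjusted p under 0.05, where 3543 of the 18028 genes were higher. In H1.0 siRNA cells TGF-β raised 3 to 5 members and lowered 0 to 1 without single libraries (9.14% and 6.6% of all genes with every library in). The interaction had 0 members higher, 2 with DESeq2 (0.817% of its genes) and 1 at an adjusted p under 0.05 (40 of the 18028 genes). With the replicate block, members called lower with TGF-β in scramble cells were 1, higher with the siRNA under TGF-β 4 and higher in the interaction 1. The shares of all genes there were 13%, 17.6% and 0.41%. The block gained 8 calls in all, each given in the report, and lost 0.

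From counts not corrected for length, in the order scramble vehicle, scramble TGF-β, H1.0 siRNA vehicle and H1.0 siRNA TGF-β, Col1a1 over Col1a2 was 1.07, 1.36, 0.912 and 0.926, Col3a1 over Col1a1 1.18, 0.56, 2.22 and 0.899, Col5a1 over Col1a1 0.17, 0.207, 0.267 and 0.371, Col5a2 over Col5a1 3.75, 2.57, 2.09 and 2.01, and the minor chains 21.6%, 25.7%, 16.3% and 27.8%. From coding transcripts alone, Col3a1 over Col1a1 was 1.32, 0.638, 2.55 and 1.05, Col5a2 over Col5a1 with scramble and vehicle 4.73, and the minor chains 17.5% with scramble and vehicle, 12.7% with H1.0 siRNA and vehicle and 22.6% with H1.0 siRNA and TGF-β. The values from coding transcripts leave out the TPM of other transcripts. For Col3a1 these held 1.925% of its reads as retained introns and 0.1062% as processed transcripts. Any other cause of these shifts beyond the length correction was not tested.

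Among all genes, the block moved calls lower with TGF-β from 1431 to 2348 in scramble cells, and in H1.0 siRNA cells from 1648 to 2551 higher and from 1190 to 2274 lower. Interaction calls went from 6 to 74 higher and from 2 to 44 lower, and with DESeq2 to 110 and 129. Without single libraries they were 0 to 6 higher and 0 to 6 lower. Without single libraries, calls for TGF-β in scramble cells fell to as few as 1037 higher and 824 lower, and in H1.0 siRNA cells to 940 and 649. With the length offset, genes higher with the siRNA were 1448 under TGF-β (2343 without it) and 1580 with vehicle (2421). Depth limits Col24a1 in siRNA cells, with 2 to 13 reads a library.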
